A study of Mus musculus with 6 samples.

Results

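The genes described here are 10 that encode secreted factors acting on blood or lymphatic vessels, namely Vegfa, Vegfb, Vegfc, Pgf, Angpt1, Angpt2, Angptl4, Adm, Apln and Thbs1. They were chosen by gene symbol from the 39179 genes of the count table, with earlier results of these data known. All 10 passed the filter on low counts that left 15576 genes for testing. RNA was measured in 6 libraries of cortical thymic epithelial cells (cTEC), the cells of the thymic cortex that support early T-cell development, from untreated 10-week-old Cxcl12::DsRed mice, a knock-in line on a C57BL/6 background in which the red protein DsRed reports the chemokine gene Cxcl12. Cells of the phenotype CD45-, EpCAM1+, UEA1-, Ly51+ were sorted into a DsRed negative subset (Cxcl12DsRed- cTEC) and a DsRed positive subset (Cxcl12DsRed+ cTEC), and 1 library of either subset came from each experiment (A, B and C), so that all mice carried the reporter and n was 3 per subset. The comparison asked how the transcriptome differs between the subsets. The sex of the mice is not given in the sources used here, nor how many were pooled for a library. The study calls the libraries independent biological replicates in one place and the plotted data a technical triplicate in another, so any p-value below reflects how far these 6 libraries varied, which may in part be technical.

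The vascular endothelial growth factors are ligands of receptor tyrosine kinases on endothelial cells. VEGF-A drives sprouting and permeability of blood vessels, VEGF-C acts mainly on lymphatic vessels, and VEGF-B and placental growth factor, encoded by Pgf, bind the receptor FLT1. The angiopoietins act on the receptor TEK, where angiopoietin 1 stabilises vessels and angiopoietin 2, made largely by endothelial cells, mostly opposes it. Adrenomedullin (Adm) and apelin (Apln) are peptides that signal through G protein-coupled receptors, ANGPTL4 is an inhibitor of lipoprotein lipase with effects on vessels, and thrombospondin 1 (Thbs1) is a matrix protein that inhibits angiogenesis through CD36 and CD47. Several of these genes, Vegfa, Adm and Angptl4 among them, are known to be induced under low oxygen by the hypoxia-inducible factors, which bind a short core motif.

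Promoter windows of 300 bases, from 250 bases before a RefSeq transcript start to 50 bases after it (GRCm38.p6), were matched by symbol for 6 of the 10 genes. The core motifs ACGTG and GCGTG were searched on both strands, and 43.77% of 32851 such windows across the genome held at least 1 of them (ACGTG in 19.62%, GCGTG in 32.39%). The windows of the VEGF family members Vegfa, Vegfb and Pgf and of Adm are shown because they differ in this motif, with the motif or its reverse complement CACGC in capitals and each sequence written 5′ to 3′ on the strand of the gene.
Vegfa, chr17:46032328-46032627, minus strand: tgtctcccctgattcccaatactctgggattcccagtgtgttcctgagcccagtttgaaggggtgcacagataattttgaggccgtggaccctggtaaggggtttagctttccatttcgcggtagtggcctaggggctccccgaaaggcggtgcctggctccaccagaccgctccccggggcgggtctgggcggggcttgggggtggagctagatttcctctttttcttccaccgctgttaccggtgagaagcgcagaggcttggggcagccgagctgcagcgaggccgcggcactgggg
Vegfb, chr19:6987602-6987901, minus strand: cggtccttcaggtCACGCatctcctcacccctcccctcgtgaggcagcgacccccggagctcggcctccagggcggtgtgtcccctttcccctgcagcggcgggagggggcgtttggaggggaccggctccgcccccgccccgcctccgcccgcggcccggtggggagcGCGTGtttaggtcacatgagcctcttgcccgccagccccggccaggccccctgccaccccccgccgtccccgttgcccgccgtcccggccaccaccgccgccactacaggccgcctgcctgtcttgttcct
Pgf, chr12:85177264-85177563, minus strand: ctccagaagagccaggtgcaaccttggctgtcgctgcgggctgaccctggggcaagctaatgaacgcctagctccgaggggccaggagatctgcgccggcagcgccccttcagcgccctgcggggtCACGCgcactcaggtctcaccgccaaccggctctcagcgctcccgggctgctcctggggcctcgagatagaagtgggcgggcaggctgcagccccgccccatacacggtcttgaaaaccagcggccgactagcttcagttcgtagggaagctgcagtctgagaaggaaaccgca
Adm, chr7:110627407-110627706, plus strand: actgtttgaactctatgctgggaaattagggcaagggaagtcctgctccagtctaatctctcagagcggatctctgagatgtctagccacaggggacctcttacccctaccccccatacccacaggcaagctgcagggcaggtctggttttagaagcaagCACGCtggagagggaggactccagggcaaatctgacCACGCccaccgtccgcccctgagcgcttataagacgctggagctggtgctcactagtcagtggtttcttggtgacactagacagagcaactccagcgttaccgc
The Adm window held GCGTG at 2 places, both read on the minus strand, starting 90 and 54 bases before the transcript start. The Vegfb window also held 2, the Pgf window 1 and the Vegfa window 0. Another RefSeq window of Vegfa, further along the gene, held 1 ACGTG and 1 GCGTG. The bases at its end were found in 0 annotated Vegfa transcripts, so whether transcription starts there is not shown. Another window of Pgf held 0 motifs, and the windows of Vegfc and Apln held 0. The end of the Vegfc window was likewise in 0 annotated transcripts of its gene. A match in such a window is a description of its letters, and binding was not measured.

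Of the 10 genes, 0 passed an adjusted p of 0.05 in the quasi-likelihood test of edgeR, with p-values adjusted by Benjamini-Hochberg over all genes, where adjusted p-values of the 10 lay between 0.102 and 0.990 and 0.623% of all genes tested passed in either direction. At an unadjusted p under 0.05 in this test stood 3 of the 10 genes (Angpt2, Adm and Thbs1), against 11.8% of all genes. In edgeR's likelihood ratio test Thbs1 passed as higher in Cxcl12DsRed- cTEC and Angpt2 as lower, so 1 of 10 in each direction, where 3.53% of all genes passed as higher and 2.12% as lower. DESeq2 called these same genes, and it called 4.68% of the genes it adjusted as higher and 2.51% as lower. Without regard to a test, all 3 libraries of Cxcl12DsRed- cTEC lay above all 3 of Cxcl12DsRed+ cTEC for 2 of the 10 genes (Vegfa and Thbs1), as for 9.73% of all genes, and below them for 2 (Angpt2 and Adm), as for 9.32%. The sign of the difference was the same within all 3 experiments for 6 of the 10 genes, 3 of them higher and 3 lower, and for 35% of all genes. The median log2 fold change of Cxcl12DsRed- cTEC relative to Cxcl12DsRed+ cTEC was -0.22 over the 10 genes and 0.02 over all genes tested.

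**Figure D1:**
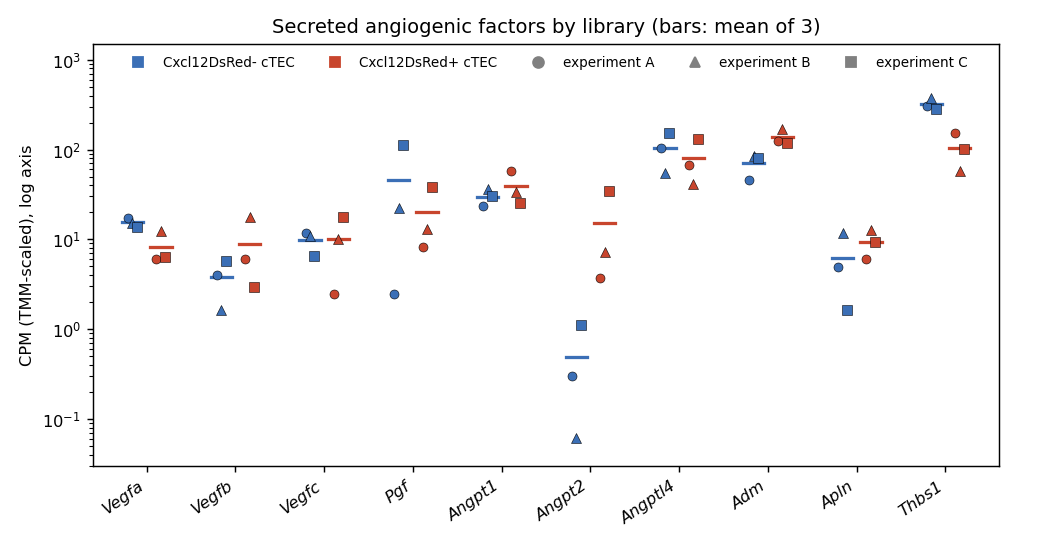
Expression of the 10 secreted factors in CPM (counts relative to the TMM-scaled library size, logarithmic axis) in 3 libraries of Cxcl12DsRed- cTEC (blue) and 3 of Cxcl12DsRed+ cTEC (red), with the symbol showing the experiment and the bar the mean. The subsets do not overlap for Vegfa, Angpt2, Adm and Thbs1, and Angpt2 spans from 0.0608 to 34.3 CPM.

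The level of a gene is given below as CPM, counts relative to the TMM-scaled library size, and its change as the log2 fold change of Cxcl12DsRed- cTEC relative to Cxcl12DsRed+ cTEC with the standard error. Bulk libraries do not separate fewer cells of a type from less RNA per cell, and since the reads were amplified a count is not a molecule. Every exact permutation test named below is two-sided and ran on log2(CPM + 0.5), where the smallest p that 3 libraries against 3 allow is 0.1 and the smallest within 3 pairs is 0.25.

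Among the VEGF ligands, Vegfa (chr17:46016993-46032369, minus strand) stood at 17.3, 15.3 and 13.7 CPM in the Cxcl12DsRed- cTEC libraries of A, B and C and at 5.97, 12.3 and 6.42 CPM in the Cxcl12DsRed+ cTEC libraries. Every Cxcl12DsRed- cTEC library was thus above every Cxcl12DsRed+ cTEC library, although the Cxcl12DsRed+ cTEC library of B came close. The means were 15.4 ± 1.8 CPM (SD, n = 3) and 8.25 ± 3.56 CPM (n = 3). The fitted log2 fold change was 0.90 (SE 0.50, 95% interval -0.27 to 2.08), and it did not pass the edgeR test (adjusted p = 0.575). The exact permutation test gave p = 0.1 over the libraries and 0.25 within the pairs, in each case the smallest p possible.

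The other members of the VEGF family overlapped between the subsets. Vegfb (chr19:6982473-6987651, minus strand), whose product binds FLT1, stood at 4.0, 1.61 and 5.76 CPM in Cxcl12DsRed- cTEC of A, B and C and at 6.07, 17.9 and 2.91 CPM in Cxcl12DsRed+ cTEC. It was lower in Cxcl12DsRed- cTEC in A and B and higher in C, with a log2 fold change of -1.24 (SE 0.91, edgeR adjusted p = 0.712). The lymphatic ligand Vegfc (chr8:54077606-54187096, plus strand) stood at 11.8, 10.8 and 6.49 CPM in Cxcl12DsRed- cTEC and at 2.46, 10.1 and 17.9 CPM in Cxcl12DsRed+ cTEC. Its order turned between the experiments, from 4.81 times as high in Cxcl12DsRed- cTEC in A to 2.76 times as high in Cxcl12DsRed+ cTEC in C, and the log2 fold change was -0.06 (SE 0.76, edgeR adjusted p = 0.990). The 95% interval of that change, -1.88 to 1.75, leaves room for a difference of either sign.

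Pgf (chr12:85166635-85177790, minus strand), the placental growth factor gene, varied most of the 10 genes among the Cxcl12DsRed- cTEC libraries, relative to its mean. It stood at 2.47, 22.5 and 113 CPM in Cxcl12DsRed- cTEC of A, B and C and at 8.18, 13.2 and 38.4 CPM in Cxcl12DsRed+ cTEC. In both subsets the library of C was highest and that of A lowest. The log2 fold change was 1.2 (SE 1.2, edgeR adjusted p = 0.823), and without the Cxcl12DsRed- cTEC library of C it was -0.67. As a share of the summed CPM of 12 fibroblast markers, most of it from Dcn, Pgf stood at 0.0630%, 0.600% and 2.11% in Cxcl12DsRed- cTEC and at 0.462%, 0.699% and 3.16% in Cxcl12DsRed+ cTEC.

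Of the angiopoietins, Angpt1 (chr15:42424723-42676977, minus strand), the agonist of TEK, stood at 23.5, 36.1 and 30.3 CPM in Cxcl12DsRed- cTEC and at 57.9, 33.8 and 25.3 CPM in Cxcl12DsRed+ cTEC. The Cxcl12DsRed+ cTEC library of A was highest, the subsets overlapped, and the log2 fold change was -0.38 (SE 0.38, edgeR adjusted p = 0.821). On the opposite strand the antisense gene Gm17473 shares 737 bases, or 14.16%, of the annotated exons of Angpt1, and it had 132 counts over the 6 libraries. Whether counting used strand is not given in the sources used here, so reads of the pair over the shared bases cannot be told apart.

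Angpt2 (chr8:18690263-18741562, minus strand) showed the largest fitted change of the 10 genes. It had 13, 2 and 45 counts in Cxcl12DsRed- cTEC of A, B and C, or 0.30, 0.0608 and 1.11 CPM, and 197, 344 and 1330 counts in Cxcl12DsRed+ cTEC, or 3.72, 7.17 and 34.3 CPM. All Cxcl12DsRed+ cTEC libraries lay above all Cxcl12DsRed- cTEC libraries, and within either subset the library of C was highest. The mean was 30.8 times as high in Cxcl12DsRed+ cTEC as in Cxcl12DsRed- cTEC, and the ratio was 12.4, 118 and 31.0 within A, B and C. The log2 fold change was -4.93 (SE 1.41, 95% interval -8.26 to -1.60). The quasi-likelihood test of edgeR gave an adjusted p of 0.195, or 0.171 when experiment was fitted as a block. By contrast, the adjusted p was 0.0107 in edgeR's likelihood ratio test and 7.3e-04 in DESeq2, within a range of 3.5e-04 to 0.545 over the alternatives listed in the methods, library-wise refits of the likelihood ratio test aside. The likelihood ratio call was lost without the Cxcl12DsRed- cTEC library of A (adjusted p = 0.0987 in edgeR) and without the Cxcl12DsRed+ cTEC library of C (adjusted p = 0.253 in edgeR, log2 fold change -3.48).

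Markers of endothelial cells also differed between the subsets. Of 28 endothelial markers, 22 were higher in all 3 Cxcl12DsRed+ cTEC libraries than in any Cxcl12DsRed- cTEC library and 0 were lower, against 9.32% and 9.73% of all genes. Of the 28, 0 were at 0 in all libraries. Their summed level was 271 to 326 CPM in Cxcl12DsRed- cTEC and 1402, 1485 and 10639 CPM in Cxcl12DsRed+ cTEC of A, B and C. The Cxcl12DsRed+ cTEC library of C was highest for both Angpt2 and this sum, whereas among the Cxcl12DsRed- cTEC libraries C was highest for Angpt2 and lowest for the sum. Expressed as a share of that sum, Angpt2 was 0.106%, 0.0186% and 0.408% in Cxcl12DsRed- cTEC of A, B and C. In Cxcl12DsRed+ cTEC the share was 0.266%, 0.483% and 0.322%. On this scale the subsets overlapped only through the Cxcl12DsRed- cTEC library of C, which had 45 counts of Angpt2. Cd34, a marker that itself overlapped between the subsets, held 41.1, 137 and 159 CPM of the sum in Cxcl12DsRed- cTEC. The pairing of Angpt2 with the endothelial list, like the others given as shares, was chosen after the values were seen. The part of endothelial cells in the result was not tested.

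ANGPTL4 is a fasting- and hypoxia-responsive protein, and its gene (chr17:33773750-33781830, minus strand) was among the more abundant of the 10. Angptl4 stood at 104, 54.5 and 152 CPM in Cxcl12DsRed- cTEC of A, B and C and at 67.6, 41.8 and 132 CPM in Cxcl12DsRed+ cTEC. It was higher in Cxcl12DsRed- cTEC within every experiment, by 1.53, 1.30 and 1.15 times, while the experiments differed more from each other than the subsets did, with B lowest and C highest in both. The log2 fold change was 0.36 (SE 0.51, edgeR adjusted p = 0.888). The exact permutation test within the pairs gave p = 0.25, the smallest possible, and over the libraries p = 0.6.

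Of the peptide hormones, Adm (chr7:110627661-110629820, plus strand), whose promoter window is shown above, stood at 45.7, 85.3 and 80.7 CPM in Cxcl12DsRed- cTEC and at 125, 168 and 118 CPM in Cxcl12DsRed+ cTEC. The highest Cxcl12DsRed- cTEC library was below the lowest Cxcl12DsRed+ cTEC library, and the Cxcl12DsRed- cTEC library of A was lowest of all 6. Means were 70.6 ± 21.7 CPM (SD, n = 3) in Cxcl12DsRed- cTEC and 137 ± 26.9 CPM (n = 3) in Cxcl12DsRed+ cTEC. The log2 fold change of -0.96 (SE 0.29, 95% interval -1.65 to -0.26) had an adjusted p of 0.240 in edgeR's quasi-likelihood test. The adjusted p was 0.122 in edgeR's likelihood ratio test and 0.0723 in DESeq2, and it was 0.0547 at the lowest and 0.674 at the highest over the alternatives in edgeR, DESeq2 and limma. The 14 cTEC markers, which do not include Adm, summed to 6519 to 9753 CPM in Cxcl12DsRed- cTEC and to 15199 to 27003 CPM in Cxcl12DsRed+ cTEC. Relative to that sum Adm stood at 0.469% to 1.24% and at 0.621% to 0.774%, so that on this scale the subsets overlapped. The scale itself differs between the subsets. It holds Cxcl12, whose reporter defined them, and Ctsl and Prss16, with means of 1874 and 130 CPM in Cxcl12DsRed- cTEC and 5049 and 2959 CPM in Cxcl12DsRed+ cTEC. Another marker, Krt8, had means of 2934 and 3054 CPM.

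Apln (chrX:48025146-48034853, minus strand), the gene of apelin, was low in all libraries. It stood at 4.94, 11.8 and 1.65 CPM in Cxcl12DsRed- cTEC of A, B and C and at 6.05, 12.6 and 9.25 CPM in Cxcl12DsRed+ cTEC. Within each experiment Cxcl12DsRed+ cTEC was higher, by 1.22, 1.07 and 5.61 times, and the subsets overlapped, since the Cxcl12DsRed- cTEC library of B was above the Cxcl12DsRed+ cTEC libraries of A and C. The log2 fold change was -0.60 (SE 0.82, edgeR adjusted p = 0.878).

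Thbs1 (chr2:118111876-118127133, plus strand), the anti-angiogenic member, had the smallest p of the 10 genes in that test. It stood at 307, 380 and 283 CPM in Cxcl12DsRed- cTEC of A, B and C and at 151, 57.7 and 102 CPM in Cxcl12DsRed+ cTEC. The lowest Cxcl12DsRed- cTEC library was above the highest Cxcl12DsRed+ cTEC library, and within A, B and C the Cxcl12DsRed- cTEC level was 2.03, 6.58 and 2.76 times that of Cxcl12DsRed+ cTEC. The means were 323 ± 50.5 CPM (SD, n = 3) and 104 ± 46.8 CPM (n = 3). Thbs1 had a log2 fold change of 1.64 (SE 0.36, 95% interval 0.79 to 2.48), with an adjusted p of 0.102 in edgeR's quasi-likelihood test and of 0.193 when experiment was fitted as a block. It passed in edgeR's likelihood ratio test (adjusted p = 0.00235) and in DESeq2 (adjusted p = 5.1e-04), and the adjusted p reached 0.421 at the highest over the alternatives. Leaving out any 1 library kept the likelihood ratio call of Thbs1, with an adjusted p of 2.4e-04 to 0.0274 in edgeR and a log2 fold change of 1.34 to 1.98. The annotation places 208 bases, or 3.425%, of its exons opposite the exons of Gm29233.

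Thbs1 is also made by fibroblasts and stored in platelets. Of 11 fibroblast markers that passed the filter, 2 were higher in all Cxcl12DsRed- cTEC libraries and 0 were lower, against 9.73% and 9.32% of all genes. The sum of the list was 3751 to 5339 CPM in Cxcl12DsRed- cTEC and 1217 to 1885 CPM in Cxcl12DsRed+ cTEC. A single marker, Dcn, made up most of this sum, with 3092 to 3469 CPM in Cxcl12DsRed- cTEC and 633 to 1512 CPM in Cxcl12DsRed+ cTEC. Relative to the sum, Thbs1 was 7.82%, 10.1% and 5.30% in Cxcl12DsRed- cTEC and 8.55%, 3.06% and 8.42% in Cxcl12DsRed+ cTEC, which overlap. The 8 platelet markers summed to 2.52 to 17.1 CPM in Cxcl12DsRed- cTEC and 4.80 to 25.3 CPM in Cxcl12DsRed+ cTEC. The part of either cell type in the level of Thbs1 was not tested.

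**Figure D2:**
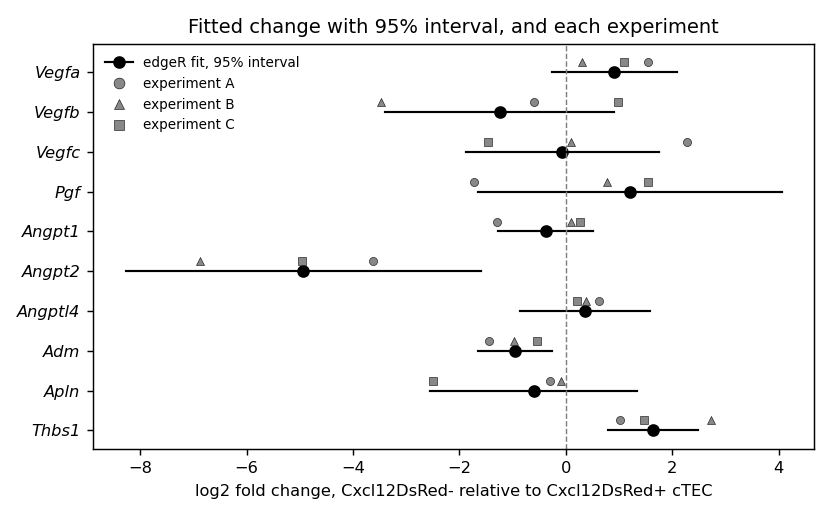
Log2 fold change of Cxcl12DsRed- cTEC relative to Cxcl12DsRed+ cTEC for the 10 genes, as the edgeR quasi-likelihood estimate with its 95% interval (black) and as the ratio of the 2 libraries of each experiment (grey symbols). The unadjusted intervals of Angpt2, Adm and Thbs1 leave out 0, and Vegfb, Vegfc, Pgf and Angpt1 have experiments of opposite sign.

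Levels of different genes were compared as CPM per kilobase of annotated exon. In Cxcl12DsRed- cTEC Thbs1 was highest at 53.2 ± 8.31 CPM per kilobase (SD, n = 3), followed by Adm at 43.6 ± 13.4 and Angptl4 at 29.2 ± 13.8. After these came Pgf, Angpt1, Vegfc, Vegfa, Vegfb and Apln, with mean levels of 15.8 down to 1.94 CPM per kilobase, and last Angpt2 at 0.133 ± 0.149. The ranges of neighbours in this order overlapped except between Apln and Angpt2. In Cxcl12DsRed+ cTEC Adm was highest at 84.5 ± 16.6 CPM per kilobase, and its range was above that of Angptl4, the next gene at 22.8 ± 13.2. Thbs1 followed at 17.1 ± 7.71, then Angpt1, Pgf, Vegfb, Vegfc, Angpt2, Apln and Vegfa, at 7.49 down to 1.92 CPM per kilobase and with overlapping ranges between all neighbours.

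For each of the 10 genes, the 2 genes with the most similar pattern were taken by Pearson's r of log2(CPM + 0.5) over the 6 libraries, among 9512 other tested genes with a mean of at least 10 CPM. With 6 points per gene and so many genes searched, these high values are descriptions only. Vegfa was nearest to Secisbp2 (0.993) and Tsr3 (0.991), Vegfb to Nudt19 (0.995) and Mpc2 (0.989), Vegfc to Pttg1 (0.973) and U2af1 (0.968), and Pgf to Dnaja2 (0.984) and Ddr2 (0.975). Angpt1 was nearest to Dld (0.991) and Psap (0.991), Angpt2 to Snai1 (0.995) and Cenpb (0.994), and Angptl4 to Hfe (0.989) and Brip1os (0.982). For Adm the pair was Panx1 (0.996) and Fam213b (0.992), for Apln Txnl1 (0.992) and Rgs19 (0.990), and for Thbs1 Slit2 (0.991) is given.

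Of the 14 receptors and co-receptors of these ligands, 12 had a negative log2 fold change, against 7587 of all 15576 genes tested. In all 0 of the 14 passed edgeR's quasi-likelihood test, and the median log2 fold change was -2.80, against 0.02 over all genes. In all Cxcl12DsRed- cTEC libraries 8 were lower than in any Cxcl12DsRed+ cTEC library and 0 were higher, against 9.32% and 9.73% of all genes. In the likelihood ratio test of edgeR 6 passed as lower, against 2.12% of all genes. In DESeq2 also 6 passed as lower, against 2.51% of the genes it adjusted. In the blocked quasi-likelihood test 1 passed (Kdr), where 21 of all 15576 genes tested passed as lower. Kdr, the main signalling receptor of VEGF-A, stood at 0.716, 0.365 and 6.59 CPM in Cxcl12DsRed- cTEC of A, B and C and at 106, 55.1 and 578 CPM in Cxcl12DsRed+ cTEC (log2 fold change -6.58, SE 1.53). Its adjusted p in edgeR was 0.115 without the block and 0.0204 with it. The decoy receptor Flt1 stood at 11.0, 5.42 and 2.75 CPM in Cxcl12DsRed- cTEC and at 89.1, 68.8 and 615 CPM in Cxcl12DsRed+ cTEC (edgeR adjusted p = 0.0923). Cd36, through which thrombospondin 1 acts on endothelium, stood at 11.6, 1.8 and 8.31 CPM in Cxcl12DsRed- cTEC and at 199, 246 and 2153 CPM in Cxcl12DsRed+ cTEC (edgeR adjusted p = 0.0827).

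Most of these receptors are endothelial proteins, and 5 of the 14 (Flt1, Kdr, Ramp2, Tek and Tie1) also belong to the 28 endothelial markers. The Cxcl12DsRed+ cTEC library of C, highest in endothelial markers, was also the highest library for each of the 14 except Cd47. Cd47, the broadly expressed receptor of thrombospondin 1, stood at 373, 358 and 316 CPM in Cxcl12DsRed- cTEC and at 170, 190 and 358 CPM in Cxcl12DsRed+ cTEC. Ackr3, a scavenger of adrenomedullin and of CXCL12, stood at 52.8, 37.3 and 89.1 CPM in Cxcl12DsRed- cTEC and at 47.8, 19.5 and 92.3 CPM in Cxcl12DsRed+ cTEC. Those receptors had fitted log2 fold changes of 0.54 and 0.17, the only positive ones of the list.

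**Figure D3:**
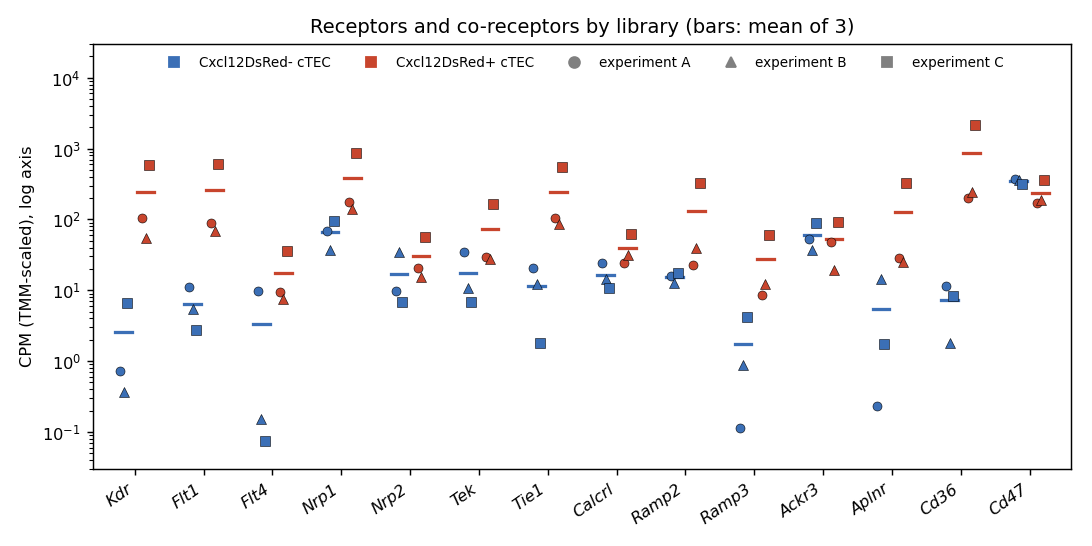
Expression of 14 receptors and co-receptors of the secreted factors in CPM (logarithmic axis) in the 6 libraries, with the experiment as the symbol and the mean as the bar. Kdr, Flt1, Nrp1, Tie1, Ramp2, Ramp3, Aplnr and Cd36 do not overlap between the subsets, and the Cxcl12DsRed+ cTEC library of experiment C is the highest for each of them.

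Of 21 other secreted or surface factors that act on vessels, 14 were tested and 1 passed, against 0.623% of all genes tested. Esm1, a proteoglycan of sprouting endothelium, fell in Cxcl12DsRed- cTEC, from 18.0, 12.7 and 131 CPM in Cxcl12DsRed+ cTEC of A, B and C to 0.0693, 0.0608 and 0.123 CPM (log2 fold change -9.26, SE 1.30, edgeR adjusted p = 0.0429, or 0.0362 in the blocked fit). That call was lost when any 1 library was left out (edgeR adjusted p of 0.0802 to 0.177), and with limma voom 0 of the list passed. Esm1 passed the filter on low counts only through the Cxcl12DsRed+ cTEC libraries. Over these 14 genes the log2 fold change had a median of 0.08, with 8 above 0 and 6 below. Among 17 other inhibitors of vessel growth tested, 0 passed in edgeR's quasi-likelihood test, and the median was 0.44. Without overlap 4 were higher and 3 lower, against 9.73% and 9.32% of all genes. Sema3f, a class 3 semaphorin, stood at 121, 102 and 57.2 CPM in Cxcl12DsRed- cTEC and at 46.3, 44.0 and 41.9 CPM in Cxcl12DsRed+ cTEC (edgeR adjusted p = 0.188). Adamts1, a protease that cleaves thrombospondins, stood at 141, 72.1 and 101 CPM in Cxcl12DsRed- cTEC and at 223, 168 and 455 CPM in Cxcl12DsRed+ cTEC (edgeR adjusted p = 0.221). Tenomodulin, encoded by Tnmd, stood at 2.59, 12.5 and 0.566 CPM in Cxcl12DsRed- cTEC, through which it passed the filter on low counts. In all 3 Cxcl12DsRed+ cTEC libraries it had 0 counts (edgeR adjusted p = 0.132). Of 11 tested enzymes and partners that process or break down the factors, 0 passed, with a median of 0.10. Ccbe1, which is needed for maturation of VEGF-C, was at 0.0304 CPM or less in Cxcl12DsRed- cTEC. In Cxcl12DsRed+ cTEC, through which it passed the filter, it stood at 0.416, 1.94 and 0.670 CPM (edgeR adjusted p = 0.145). Pcsk5 and Mmp3 followed by p, with edgeR adjusted p-values of 0.537 and 0.675.

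Genes of the hypoxia response, the pathway known to induce several of the factors, did not pass the test. Of 8 tested hypoxia-inducible factors and regulators 0 passed, with a median log2 fold change of -0.19. Egln3, a prolyl hydroxylase, stood at 63.7, 52.3 and 38.5 CPM in Cxcl12DsRed- cTEC and at 29.8, 23.0 and 11.6 CPM in Cxcl12DsRed+ cTEC (edgeR adjusted p = 0.270). Next by p came Epas1 and Egln1 (edgeR adjusted p = 0.599 and 0.741). Of 24 hypoxia-induced genes 0 passed, 10 had a positive and 14 a negative log2 fold change, and the median was -0.14. Without overlap 5 of the 24 were lower and 1 was higher in Cxcl12DsRed- cTEC, against 9.32% and 9.73% of all genes. The sum of the list was 4377 to 5362 CPM in Cxcl12DsRed- cTEC and 5540 to 6467 CPM in Cxcl12DsRed+ cTEC, which do not overlap. Bnip3l, a mitophagy receptor, stood at 327, 318 and 270 CPM in Cxcl12DsRed- cTEC and at 605, 851 and 588 CPM in Cxcl12DsRed+ cTEC, with a log2 fold change of -1.16 (SE 0.21, edgeR adjusted p = 0.0717, and 0.00338 in the likelihood ratio test). Ndrg1 was lower and P4ha2 higher in all Cxcl12DsRed- cTEC libraries than in any Cxcl12DsRed+ cTEC library (edgeR adjusted p = 0.302 and 0.369). Vegfa, Adm and Angptl4, the 3 factors named above as induced by hypoxia, had fitted log2 fold changes of 0.90 (SE 0.50), -0.96 (SE 0.29) and 0.36 (SE 0.51). They did not pass edgeR's quasi-likelihood test, and a part of hypoxia in these values was not tested.

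The marker lists of cTEC and of other cell types are given once here, and which cells made these transcripts was not tested. All 14 cTEC markers were detected, of which 11 were lower in Cxcl12DsRed- cTEC without overlap. By edgeR's quasi-likelihood test 3 passed as lower in Cxcl12DsRed- cTEC (Psmb11, Prss16 and Cxcl12), where 27 of all 15576 genes tested did. The Cxcl12 reporter defined the subsets, so a lower Cxcl12 level was set by the sort. The paper reports several others of the list as FOXN1 targets with lower expression in Cxcl12DsRed- cTEC. Epcam was higher without overlap, with means of 197 CPM in Cxcl12DsRed- cTEC and 89.4 CPM in Cxcl12DsRed+ cTEC, and Krt8 and Krt18 overlapped. Tuft cell markers summed to 3253, 927 and 583 CPM in Cxcl12DsRed- cTEC of A, B and C and to 38.7 to 44.1 CPM in Cxcl12DsRed+ cTEC. Of these markers 14 of 14 were higher without overlap. Trpm5, 1 of them, had means of 200 CPM in Cxcl12DsRed- cTEC and 0.657 CPM in Cxcl12DsRed+ cTEC. By contrast, the paper reports that qPCR found neither subset to express Trpm5, Aire or Ccl21a. From this and a RANK reporter it proposes that Cxcl12DsRed- cTEC hold no medullary TEC lineage cells. Pericyte and smooth muscle markers summed to 864 to 1112 CPM in Cxcl12DsRed- cTEC and 1082 to 2064 CPM in Cxcl12DsRed+ cTEC, and medullary TEC markers to 3489 to 4763 and 1079 to 5036 CPM. Krt5 and Krt14 made up most of the medullary sum. Of 8 medullary TEC markers tested, 3 were higher in Cxcl12DsRed- cTEC without overlap and 0 lower, Cldn4 among them with means of 201 and 1.48 CPM. Over all genes tested, 9.73% were higher and 9.32% lower without overlap. Myeloid markers summed to 142 to 883 CPM in Cxcl12DsRed- cTEC and 32.7 to 97.3 CPM in Cxcl12DsRed+ cTEC, and thymocyte markers to 59.1 to 112 and 43.1 to 365 CPM. The DsRed transcript stood at 16.8 to 28.6 CPM, on unscaled totals, in Cxcl12DsRed- cTEC and 891 to 2055 in Cxcl12DsRed+ cTEC. Counts in genes per library ranged from 34574900 to 51042679.

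**Figure D4:**
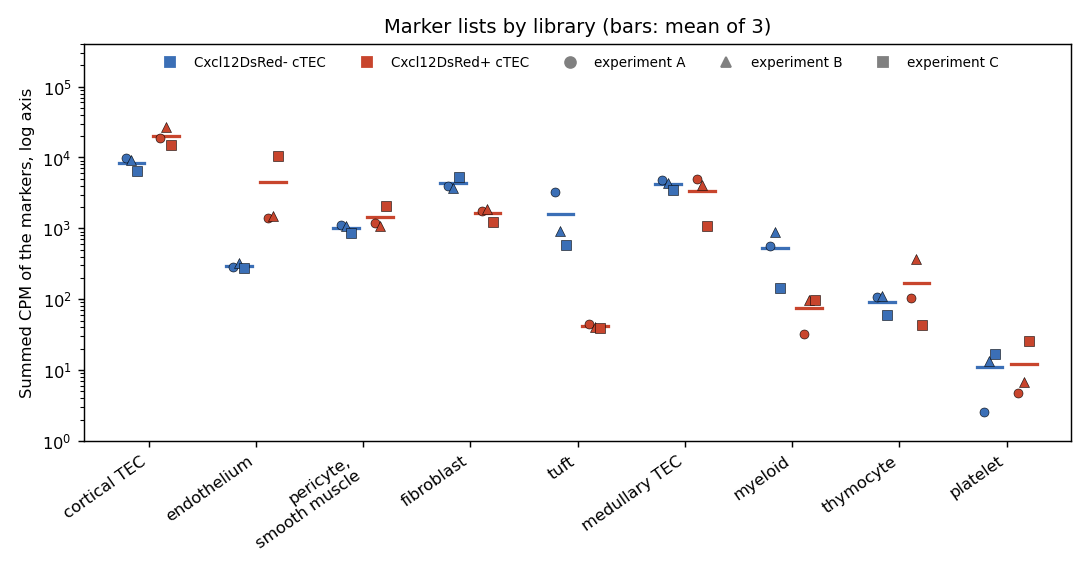
Summed CPM of the marker lists (logarithmic axis) in the 6 libraries, with the experiment as the symbol and the mean as the bar. The Cxcl12DsRed+ cTEC library of experiment C stands above all others for endothelial markers (10639 CPM), and the Cxcl12DsRed- cTEC library of experiment A for tuft cell markers (3253 CPM).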

How the data were processed

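RNA-seq counts of 6 libraries, 3 of Cxcl12DsRed- and 3 of Cxcl12DsRed+ cTEC, were used. RNA was extracted with a Qiagen RNeasy kit, made into libraries with the SMARTer Ultra Low Input kit and sequenced on a NovaSeq. According to the submitters' processing notes and the methods, the authors used Trimmomatic 0.36 for trimming, STAR 2.7.3a for alignment to mm10 and HTSeq for counting, and they deposited unnormalised whole-number counts per gene. The annotation release is not given in the sources used here, nor is the use of strand. Supplementary fold changes and p-values of the authors' own comparison were not used.

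The 92 spike-in names (0 counts), 5 HTSeq summaries and the DsRed entry were left out of library sizes. Reads in no gene amounted to 5.87% to 9.35% of the counts in genes, ambiguous reads to 1.21% to 1.39% and multiply aligned reads to 5.61% to 9.07%. Symbols and coordinates came from GENCODE annotation of GRCm38 (37693 of 39179 IDs had a symbol). IDs without a symbol held 0.180% of the counts.

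The test was run in edgeR 4.0.16 (R 4.3.3). Genes passing filterByExpr (minimum count 10) were kept, scaled by TMM and tested with the quasi-likelihood test and Benjamini-Hochberg adjustment at 0.05 over 15576 genes, with a prior count of 0.125. The alternatives tried were the likelihood ratio test of edgeR, a block for experiment in either test, voom in limma 3.58.1, DESeq2 1.42.0, RLE factors, library totals, a filter of 1 CPM on the mean, no filter, and each library or experiment left out. The fit was tested on simulated data. Libraries were paired by the experiment letter in the labels. Deviations from the subset means correlated across genes at 0.0296, 0.0892 and 0.0810 between libraries of the same experiment and at -0.111 to 0.00632 between others.

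The 10 genes and all lists were chosen with earlier results of these data known. The rule for naming genes took all 10 members, each gene of a pathway list that passed or otherwise the 3 with the smallest p, and the 2 genes most like each member. A single gene that this rule selected is not reported here. Promoter windows are RefSeq sequences. Plots were drawn with matplotlib 3.10.9.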

Additional observations from a re-analysis of the deposited data

How the results depend on the processing

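Of the 10 genes, 0 passed in edgeR's quasi-likelihood test, and this count stayed at 0 under all alternatives of that test and with limma voom. It was 2 (Thbs1 and Angpt2) in the likelihood ratio test with and without the replicate block and in DESeq2. A set of fits chosen after seeing the data, the likelihood ratio test without each library, gave 2, or 1 without the Cxcl12DsRed- library of A or the Cxcl12DsRed+ library of C, where Angpt2 was lost.

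Over all genes, 70 passed as higher and 27 as lower in Cxcl12DsRed- cTEC. The counts were 550 and 330 in the likelihood ratio test, 644 and 416 in that test with the replicate block, 704 and 377 in DESeq2, 3 and 1 with voom, and 122 and 46 with no filter. Without 1 library they ranged from 0 to 112 higher and from 0 to 19 lower, 112 being reached without the Cxcl12DsRed- library of C and 0 or 1 without any other library. Without experiment A or B they were 0 and 0, and without experiment C 54 and 10. The cause was not tested. With the replicate block in the quasi-likelihood test 52 were higher and 21 lower.

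Thbs1, Angpt2, Adm, Vegfa and Apln kept their direction in all alternatives. The log2 fold change of Vegfc, -0.06, became 0.27 with the replicate block in both tests, 0.43 with voom, 0.16 without the Cxcl12DsRed- library of C, 0.59 without the Cxcl12DsRed+ library of C and 0.83 without experiment C. That of Pgf became -0.67 and that of Angptl4 -0.026 without the Cxcl12DsRed- library of C, in both the quasi-likelihood and the likelihood ratio test. Without 1 library each, the quasi-likelihood values ranged from -0.57 to 0.59 for Vegfc, from -0.67 to 2.09 for Pgf and from -0.026 to 0.90 for Angptl4. That of Vegfb became 0.13 without experiment B, and that of Angpt1 0.13 without experiment A. None of these values passed a test. In the quasi-likelihood test the replicate block changed 1 call of the factors and pathway genes named, that of Kdr. In the likelihood ratio test it ended that of Ramp2 (adjusted p = 0.0295 without and 0.108 with the block in edgeR) and added Ramp3, Aplnr and Egln3. RLE factors moved the median log2 fold change of all genes by 0.0065 and library totals by -0.04.

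The 6 libraries limit all single-gene statements, since 3 against 3 cannot give an exact permutation p under 0.1. Low counts limit Angpt2 most, with 2 counts in 1 library.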
